A study of Mus musculus with 12 samples.

Results

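The 10 genes described here are widely used in mice as markers of alternative, or M2, macrophage activation: Arg1, Mrc1, Retnla, Chil3, Cd163, Mgl2, Clec10a, Il10, Il4ra and Msr1. They were chosen by symbol and not by a cut on their values, though with earlier results of these data known. Each matched 1 gene among the 55401 of the deposited table. All 10 were among the 14313 genes tested, whose FPKM averaged 1 or more across all samples. FPKM is the fragment count scaled to transcript length and library size. Chil3 and Msr1 passed that filter only through 1 library, WT day 7 replicate 1, without which 8 of the 10 would have passed.

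Dermal RNA was sequenced from wild-type (WT) animals and from Cthrc1-/- animals, in which the gene for a secreted protein with a collagen triple helix repeat is disrupted. Every animal was C57BL/6 and 6 weeks old, and tissue was taken on day 0 and on day 7 of a wounding experiment. Each genotype was sampled on each day, which gave 4 groups with 3 biological replicates apiece, 12 samples in total. The labels give neither the design of the Cthrc1 allele nor the number of animals behind a sample, and they do not say how the day 0 skin was handled.

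Macrophages take up alternative activation when IL-4 or IL-13 binds a receptor that contains the IL-4 receptor alpha chain, encoded by Il4ra, and activates the transcription factor STAT6. Arginase, the resistin-like molecule alpha, the chitinase-like protein Ym1 and the C-type lectins of this program are its classic mouse products, and IL-10 is a second inducing signal as well as a product. In skin wounds, macrophages of this kind are known for clearing dead cells and for supporting matrix deposition, while the dermis also holds resident macrophages that carry the mannose receptor and CD163 without injury. In a bulk tissue sample, fewer cells of a type and less RNA per cell cannot be told apart.

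On the GRCm38 assembly, by GENCODE M21, all 10 are protein-coding genes. Of these only Mgl2 (chr11:70130329-70137550) and Clec10a (chr11:70156197-70170834) lie close together. The receptors Mrc1 (chr2:14229392-14332057), Cd163 (chr6:124304656-124330527), Msr1 (chr8:39581685-39642673) and Il4ra (chr7:125552120-125579474) are on separate chromosomes. So are Arg1 (chr10:24915221-24927484), Chil3 (chr3:106147554-106167564), Retnla (chr16:48842551-48844461) and Il10 (chr1:131019845-131024974). RefSeq promoters were at hand for 6 of the 10, Mrc1, Chil3, Cd163, Il4ra, Mgl2 and Retnla. Each was searched on both strands, over the 250 bases before the RefSeq start, for 3 motifs of factors known in these cells: TTCNNNNGAA for STAT6, TTGCNNAA for C/EBP and GAGGAA for PU.1 (TTCCTC on the other strand). The 4 printed here were picked for the day patterns given below. Over both genotypes Retnla and Mgl2 were lower on day 7, and the difference of Mrc1 between days did not pass the test. Chil3 was called higher on day 7, in a test that it entered only through a high WT day 7 library. Of the 12 fits that left out a library, 12 kept the Retnla call, 4 the Mgl2 call and 3 the Chil3 call. Capitals mark motif matches, bases run 5′ to 3′ on the gene's own strand, and each stretch stops before the GENCODE start of the gene. The stretches are chr16:48842359-48842550 (plus strand) for Retnla, chr11:70130107-70130328 (plus) for Mgl2, chr2:14229164-14229391 (plus) for Mrc1 and chr3:106167565-106167814 (minus) for Chil3, all on GRCm38.p6.
Retnla: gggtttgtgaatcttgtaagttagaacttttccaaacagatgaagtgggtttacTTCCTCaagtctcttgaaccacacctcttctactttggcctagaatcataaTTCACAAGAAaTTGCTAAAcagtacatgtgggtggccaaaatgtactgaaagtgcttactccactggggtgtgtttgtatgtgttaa
Mgl2: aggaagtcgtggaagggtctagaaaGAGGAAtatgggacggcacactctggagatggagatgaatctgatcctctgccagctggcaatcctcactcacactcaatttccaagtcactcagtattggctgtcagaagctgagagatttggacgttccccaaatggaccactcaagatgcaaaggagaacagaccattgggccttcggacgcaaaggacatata
Mrc1: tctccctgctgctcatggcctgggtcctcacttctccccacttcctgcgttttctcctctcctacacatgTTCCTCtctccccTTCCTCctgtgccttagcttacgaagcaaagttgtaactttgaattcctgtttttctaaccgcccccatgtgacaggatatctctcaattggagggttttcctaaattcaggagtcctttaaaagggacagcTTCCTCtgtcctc
Chil3: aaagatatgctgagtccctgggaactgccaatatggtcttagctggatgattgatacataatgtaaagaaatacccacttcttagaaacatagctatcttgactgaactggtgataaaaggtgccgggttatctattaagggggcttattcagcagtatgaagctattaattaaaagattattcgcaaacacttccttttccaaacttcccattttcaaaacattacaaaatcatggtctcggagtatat

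Positions are counted from the RefSeq start, which for Retnla, Mgl2 and Mrc1 lies beyond the end of the printed stretch. The Retnla promoter held all 3 motifs once: TTCACAAGAA, the STAT6 form, began at −145, TTGCTAAA, the C/EBP form, at −134, and the PU.1 form at −196. No other of the 6 promoters held the STAT6 or the C/EBP form. The PU.1 form was present once in Mgl2, at −225, and at 3 places in Mrc1, at −180, −167 and −35. The matches did not overlap each other. Among 27025 promoters of the same length, 5.87% held the STAT6 form, 9.55% the C/EBP form and 23.1% the PU.1 form. A match of letters describes the sequence and does not show a bound site.

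Some facts of the whole series bear on these genes. Total counts ranged from 48329668 to 76938132 per sample. Cthrc1 itself was between 21.1 and 27.0 FPKM in WT day 0, between 74.0 and 106 in WT day 7 and at most 0.151 in the 6 Cthrc1-/- samples, which matches their labels. The tissue was labelled dermis, and epidermal keratinocyte markers summed to between 3134 and 11167 FPKM in every sample beside 337 to 6441 FPKM for fibroblast markers, so that epidermal RNA was present throughout. WT day 7 replicate 1 stood apart: its 10 neutrophil markers summed to 5129 FPKM against 43.4 to 1165 in the other 5 day 7 samples, and its 15 inflammatory macrophage markers to 1386 FPKM against 48.5 to 111. Cthrc1-/- day 0 replicate 3 also stood apart within its group, with fibroblast markers at 337 FPKM against 1296 and 2386 in the other 2 replicates and hair follicle markers at 11995 FPKM against 234 and 4856. Results of the 10 genes that rest on either library are given with and without it, while calls of the marker lists are given only with all samples.

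**Figure D1:**
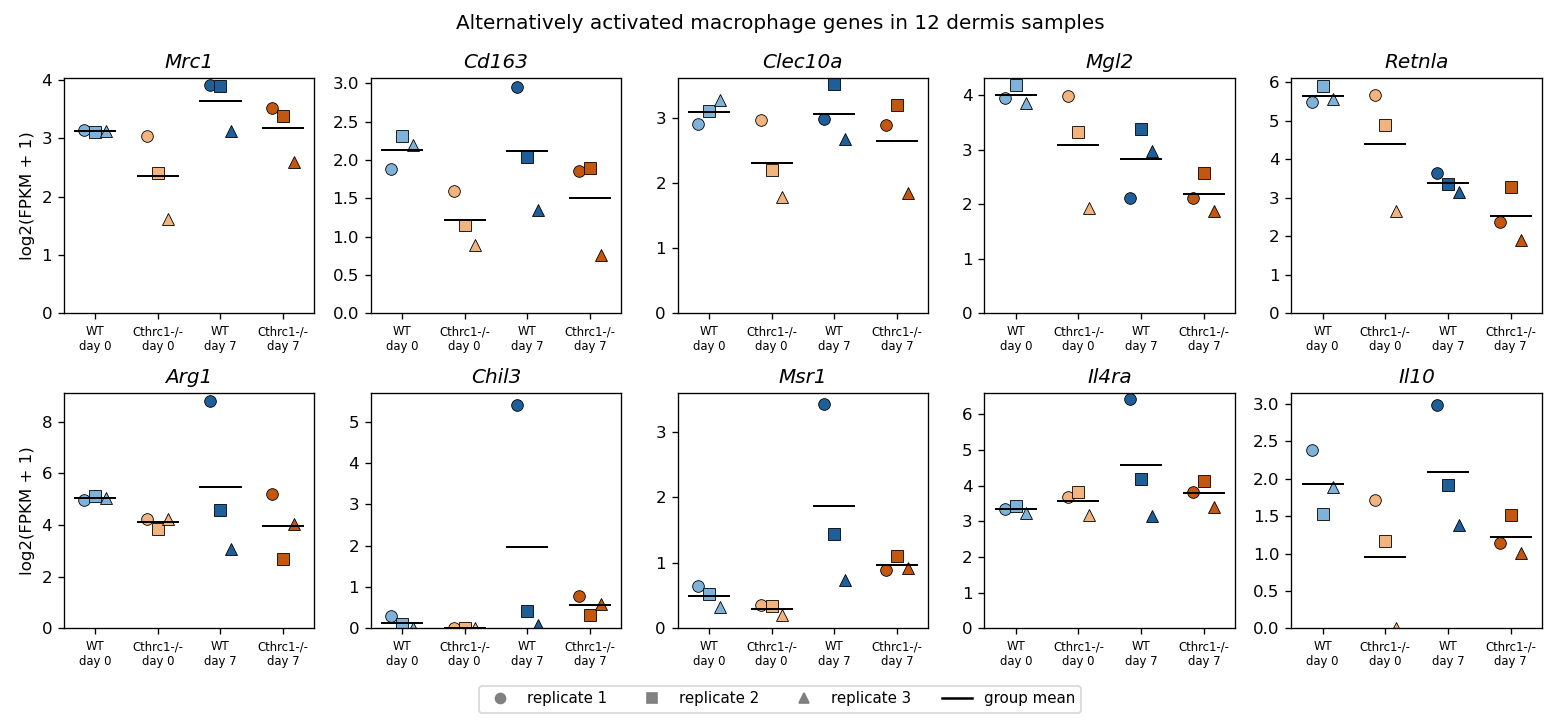
Level of each of the 10 genes, as log2(FPKM + 1), in the 12 samples, with 1 panel per gene, a symbol per replicate and a line at the group mean. Retnla and Mgl2 are lower on day 7, while Arg1, Chil3, Msr1 and Il4ra reach their highest value in WT day 7 replicate 1.

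Retnla and Mgl2 fell between day 0 and day 7. Retnla encodes the resistin-like molecule alpha (also called Fizz1), a secreted IL-4 and IL-13 target, and on day 0 it was the highest of the 10 genes in both genotypes by median FPKM. Mgl2 encodes the galactose-type C-type lectin also known as CD301b, carried by dermal dendritic cells as well as by macrophages. Averaged over the 2 genotypes, Retnla fell by 2.57 on the log2 scale (SE 0.50, n = 6 against 6) and Mgl2 fell by 1.45 (SE 0.39). In the ranking of medians, Retnla went from the first place to the fourth in WT and to the fifth in Cthrc1-/-.

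Retnla stood at 43.7, 58.9 and 46.2 FPKM in the WT day 0 replicates 1 to 3 and at 11.6, 9.34 and 7.84 FPKM in those of WT day 7. The WT groups did not overlap, and the lowest day 0 sample was well above the highest day 7 sample. In Cthrc1-/- it stood at 49.6, 28.5 and 5.28 FPKM on day 0 and at 4.18, 8.67 and 2.76 FPKM on day 7. Here the groups overlapped through day 0 replicate 3, the library with few fibroblast and many hair follicle transcripts, which was below the highest day 7 sample. The fall over both genotypes passed the test (edgeR adjusted p = 0.00905, 95% interval −3.68 to −1.46). Within WT the log2 change was −2.54 (SE 0.71, edgeR adjusted p = 0.0425), and within Cthrc1-/- it was −2.60 (SE 0.71, edgeR adjusted p = 0.0930). Without Cthrc1-/- day 0 replicate 3 the Cthrc1-/- change was −3.10 and passed the test (edgeR adjusted p = 0.0179). Without WT day 7 replicate 1 the WT change was −2.67 and missed it (edgeR adjusted p = 0.0786). The WT call was also lost on leaving out any other WT replicate, Cthrc1-/- day 0 replicate 2 or Cthrc1-/- day 7 replicate 1 (edgeR adjusted p between 0.0619 and 0.110). The fall over both genotypes passed in each of the 12 fits that left out 1 library (edgeR adjusted p between 0.000859 and 0.0290).

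Mgl2 stood at 14.5, 17.3 and 13.6 FPKM in WT day 0 and at 3.34, 9.46 and 6.90 FPKM in WT day 7. Again the WT groups did not overlap. The Cthrc1-/- samples gave 15.0, 9.03 and 2.85 FPKM on day 0 and 3.36, 4.94 and 2.69 FPKM on day 7, and the overlap came once more from day 0 replicate 3. The fall over both genotypes passed the test (edgeR adjusted p = 0.0303, 95% interval −2.31 to −0.59). The change was −1.42 (SE 0.55, edgeR adjusted p = 0.105) within WT and −1.47 (SE 0.55, edgeR adjusted p = 0.191) within Cthrc1-/-. Without Cthrc1-/- day 0 replicate 3 the latter was −1.91 with an edgeR adjusted p of 0.0357. Of the 12 fits that left out 1 library, 4 kept the Mgl2 call over both genotypes, and it was lost without any of the WT day 0 replicates, Cthrc1-/- day 0 replicates 1 or 2, WT day 7 replicate 1, or Cthrc1-/- day 7 replicates 1 or 3 (edgeR adjusted p between 0.0582 and 0.0696).

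As group means, Retnla went from 49.6 ± 8.17 FPKM (SD, n = 3) to 9.58 ± 1.87 in WT and from 27.8 ± 22.2 to 5.20 ± 3.08 in Cthrc1-/-. Mgl2 went from 15.1 ± 1.98 to 6.56 ± 3.07 FPKM in WT and from 8.95 ± 6.06 to 3.66 ± 1.16 in Cthrc1-/-. Both genes thus varied most, relative to the mean, in the Cthrc1-/- day 0 group. Over the 12 samples their log2(FPKM + 1) levels correlated with Pearson's r = 0.91, and with r = 0.95 over the 11 samples without WT day 7 replicate 1, as a description of samples that share the same libraries and the same day difference.

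Paralogs make some of these values uncertain, since the way reads were shared among near copies is not given in the sources used here. The longest transcripts of Mgl2 and Clec10a were 96.7% identical over 704 aligned bases, those of Chil3 and Chil4 94.3% over 1540 bases, and those of Retnla and Retnlg 82.8% over 599 bases. Mgl2 fell between the days, while Clec10a showed no difference that passed the test. The part of shared reads in these values was not tested. Retnlg, a resistin-like gene of neutrophils, was at 236 FPKM in WT day 7 replicate 1 and at no more than 3.59 FPKM in any other sample. Retnlb was at 0 in all 12 samples. Chil4 was at most 0.613 FPKM, in Cthrc1-/- day 7 replicate 1, where Chil3 itself was only at 0.725 FPKM.

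Mrc1 and Cd163, grouped in advance as the resident markers of the list, showed no difference between days that passed the test. Neither did Clec10a, which was not part of that grouping. Mrc1 encodes the mannose receptor CD206, Cd163 the scavenger receptor for haptoglobin and haemoglobin complexes, and Clec10a the galactose-type lectin CD301a. Averaged over genotypes, the log2 change was 0.58 (SE 0.32, edgeR adjusted p = 0.239) for Mrc1, 0.21 (SE 0.45, edgeR adjusted p = 0.782) for Cd163 and 0.03 (SE 0.34, edgeR adjusted p = 0.961) for Clec10a. The 95% intervals, −0.14 to 1.30, −0.79 to 1.21 and −0.72 to 0.78, did not reach the size of the Retnla fall in either direction.

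Mrc1 stood at 7.77, 7.61 and 7.73 FPKM in WT day 0, a spread of only 0.0824 (SD), and at 14.0, 13.8 and 7.75 FPKM in WT day 7. In WT day 7, replicates 1 and 2 were above all day 0 samples and replicate 3 was level with them. Cthrc1-/- dermis held 7.22, 4.28 and 2.05 FPKM on day 0 and 10.5, 9.43 and 5.05 FPKM on day 7, and the groups overlapped. The change was 0.46 (SE 0.46) within WT and 0.70 (SE 0.46) within Cthrc1-/-, with edgeR adjusted p of 0.526 and 0.458.

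Cd163 stood at 2.69, 3.96 and 3.59 FPKM in WT day 0 and at 6.74, 3.10 and 1.55 FPKM in WT day 7, so that the day 7 replicates lay on both sides of the day 0 range. In Cthrc1-/- it stood at 2.02, 1.23 and 0.857 FPKM on day 0 and at 2.63, 2.74 and 0.691 FPKM on day 7. Clec10a stood at 6.52, 7.68 and 8.74 FPKM in WT day 0 and at 6.91, 10.5 and 5.44 FPKM in WT day 7. The Cthrc1-/- samples gave 6.82, 3.61 and 2.45 FPKM on day 0 and 6.45, 8.22 and 2.60 FPKM on day 7. For both genes the day groups overlapped in each genotype.

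Arg1 and Chil3 were grouped in advance as the wound-induced markers of the list, a name for the grouping that the Arg1 values below do not bear out outside 1 library. Both were dominated by WT day 7 replicate 1. Arg1 encodes arginase 1, which turns arginine into ornithine and urea. It stood at 30.5, 33.8 and 31.9 FPKM in WT day 0 and at 439, 23.0 and 7.45 FPKM in WT day 7. Replicate 1 was far above every other sample of the series, and replicates 2 and 3 were both below all WT day 0 samples. Cthrc1-/- dermis held 18.0, 13.3 and 17.6 FPKM on day 0 and 35.4, 5.38 and 15.4 FPKM on day 7, on both sides of the day 0 range. The WT change was 2.23 on the log2 scale (SE 1.23, edgeR adjusted p = 0.237), and without WT day 7 replicate 1 it was −1.20 (edgeR adjusted p = 0.292). The change over both genotypes was 1.14 (SE 0.84, edgeR adjusted p = 0.373) with that library and −0.56 without it. Arg1 was already the second highest of the 10 genes on day 0 in both genotypes by median FPKM.

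Chil3 encodes Ym1, a secreted chitinase-like protein of IL-4-treated macrophages that neutrophil precursors also make. It stood at 0.225, 0.0787 and 0 FPKM in WT day 0 and at 41.6, 0.348 and 0.0568 FPKM in WT day 7. Replicate 1 alone held 4685 of the WT day 7 counts, beside 44 and 7 in the other 2 replicates. In Cthrc1-/- it was at 0 in all 3 day 0 samples and at 0.725, 0.258 and 0.500 FPKM on day 7. Against a floor of 3 counts per library, Chil3 in Cthrc1-/- was at least 16.9-fold higher on day 7 (0.919 ± 0.432 CPM, SD, n = 3, against a floor of 0.0543 CPM as the mean of the 3 day 0 libraries). CPM is the count scaled to library size. That bound takes the counts as deposited, in which low values pile up at multiples of 4, so that 3 counts may be less than 1 fragment. In Cthrc1-/- day 7 replicates 1 to 3 the near copy Chil4 held 137, 8 and 0 counts, beside 95, 33 and 58 of Chil3. How reads shared between these copies bear on the bound was not tested.

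Over both genotypes Chil3 rose (edgeR adjusted p = 0.0411), with a fitted log2 change of 7.87 (SE 2.17). That size depends on the prior count, since 1 of the groups was at 0 throughout, and is not a bound. Without WT day 7 replicate 1 the fitted change was 4.82 (edgeR adjusted p = 0.0373). The call was lost without any 1 of the 6 day 0 samples or the 3 Cthrc1-/- day 7 samples (edgeR adjusted p between 0.0525 and 0.0972). By limma on log2(FPKM + 1) it was 1.20 (limma adjusted p = 0.277), and DESeq2 gave Chil3 no adjusted p in any comparison. Chil3 was admitted to the test by its high day 7 library, so that the call is partly set by the filter. The fits without that library kept Chil3 among the genes tested, although it would not have passed the filter there. With no filter on low values the edgeR adjusted p was 0.0492. Within WT the change was 7.03 (SE 2.41, edgeR adjusted p = 0.0868), and without WT day 7 replicate 1 it was 0.89 (edgeR adjusted p = 0.683). All 3 Cthrc1-/- day 7 samples were above all 3 of their day 0 samples, with an edgeR adjusted p of 0.289, or 0.0481 when WT day 7 replicate 1 was left out of the fit.

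Msr1 rose between the days. It encodes the class A scavenger receptor that takes up modified lipoproteins and bacteria. It stood at 0.573, 0.432 and 0.253 FPKM in WT day 0 and at 9.72, 1.72 and 0.665 FPKM in WT day 7. In Cthrc1-/- it stood at 0.275, 0.265 and 0.156 FPKM on day 0 and at 0.862, 1.15 and 0.889 FPKM on day 7. All 6 day 7 samples were above all 6 day 0 samples, and Msr1 was the 1 member of the 10 of which that held, beside 6.66% of the genes tested. Over both genotypes the log2 change was 2.52 (SE 0.60, edgeR adjusted p = 0.0203), and without WT day 7 replicate 1 it was 1.64 (edgeR adjusted p = 0.00931). The call was lost without WT day 0 replicate 2 (2.53, edgeR adjusted p = 0.0514) or replicate 3 (2.40, edgeR adjusted p = 0.0548), and by limma on log2(FPKM + 1) (1.02, limma adjusted p = 0.0701). Msr1, like Chil3, was admitted to the test by its high day 7 library, so that its call too is partly set by the filter. The fits without that library kept Msr1 among the genes tested, although it would not have passed the filter there. With no filter on low values and all samples its edgeR adjusted p was 0.0241.

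Within WT the Msr1 change was 3.18 (SE 0.87, edgeR adjusted p = 0.0396), and it was 1.37 without WT day 7 replicate 1 (edgeR adjusted p = 0.0947). The WT call was also lost without any WT day 0 replicate, without Cthrc1-/- day 0 replicate 2 and without any Cthrc1-/- day 7 replicate (edgeR adjusted p between 0.0549 and 0.132). It was lost as well with no filter (edgeR adjusted p = 0.0546), with only the WT groups in the fit (edgeR adjusted p = 0.106) and by limma with a pseudocount of either 1 (limma adjusted p = 0.0982) or 0.1 (limma adjusted p = 0.0700). Within Cthrc1-/- the change was 1.87 (SE 0.83, edgeR adjusted p = 0.272), and 1.92 (edgeR adjusted p = 0.0349) when WT day 7 replicate 1 was left out of the fit. Levels were low on day 0, with means of 0.420 ± 0.160 FPKM for WT and 0.232 ± 0.0657 FPKM for Cthrc1-/- (SD, n = 3).

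Il4ra, the receptor chain through which IL-4 and IL-13 signal, stood at 9.12, 9.84 and 8.46 FPKM in WT day 0 and at 84.6, 17.1 and 7.88 FPKM in WT day 7. Replicate 1 was again the highest sample and replicate 3 lay below the day 0 range. The Cthrc1-/- samples gave 11.8, 13.2 and 7.99 FPKM on day 0 and 13.2, 16.6 and 9.53 FPKM on day 7, and the groups overlapped. The change over both genotypes was 0.999 (SE 0.51, edgeR adjusted p = 0.196), and without WT day 7 replicate 1 it was 0.22 (edgeR adjusted p = 0.554). It passed when WT day 7 replicate 3 was left out (1.25, edgeR adjusted p = 0.0492).

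Il10, the gene of the cytokine IL-10, stood at 4.20, 1.89 and 2.72 FPKM in WT day 0 and at 6.95, 2.77 and 1.61 FPKM in WT day 7. Cthrc1-/- dermis held 2.27, 1.24 and 0 FPKM on day 0 and 1.21, 1.86 and 1.01 FPKM on day 7. The day groups overlapped in both genotypes, and the change over both was 0.12 (SE 0.79, 95% interval −1.63 to 1.87, edgeR adjusted p = 0.932).

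Counted over the list, 2 members rose over both genotypes (Msr1 and Chil3), beside 8.35% of all genes tested, 2 fell (Retnla and Mgl2), beside 9.56%, and 6 did not pass. Nothing is read from the count of rises, since both members entered the test through WT day 7 replicate 1. The median change of the 10 was 0.39, against 0.01 over all genes tested, and without that library it was −0.01 (5 positive and 5 negative), against 0.06. In WT alone 1 member rose (Msr1), beside 6.04% of all genes, and 1 fell (Retnla), beside 7.10%, and 0 were called without WT day 7 replicate 1 (2 with an unadjusted edgeR p under 0.05). The WT groups did not overlap for 1 higher member (Msr1), beside 29.8% of genes, and for 2 lower ones (Retnla and Mgl2), beside 14.1%. In Cthrc1-/- edgeR called 0 members, beside 1.46% of genes. There, 3 had an unadjusted edgeR p under 0.05 (Retnla, Mgl2 and Msr1), beside 18.1%, DESeq2 called 1 (Retnla, adjusted p = 0.00232) and limma called 0. The Cthrc1-/- groups did not overlap for 2 higher members (Chil3 and Msr1), beside 21.5% of genes.

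**Figure D2:**
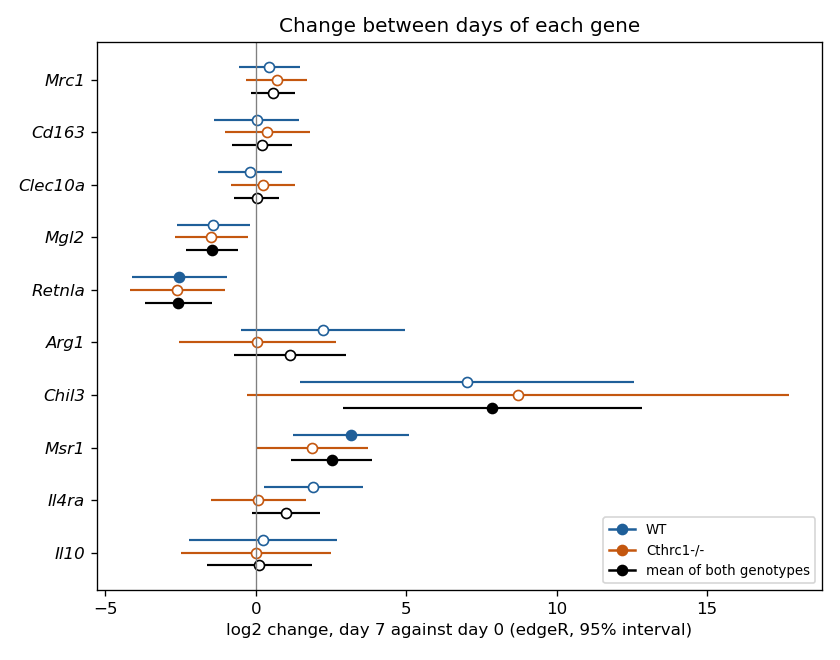
Fitted log2 change from day 0 to day 7 of each gene in WT, in Cthrc1-/- and averaged over both, with 95% intervals and filled points where the edgeR adjusted p was under 0.05. Retnla and Mgl2 lie below 0 in both genotypes and Msr1 above it, while the Chil3 values rest on groups at or near 0 and depend on the prior count.

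Ratios within a sample set the members against each other without a scaling between libraries. Retnla divided by Mrc1 was between 5.62 and 7.73 in WT day 0 and between 0.677 and 1.01 in WT day 7. In Cthrc1-/- it was between 2.57 and 6.87 on day 0 and between 0.399 and 0.919 on day 7. Every day 7 sample was below every day 0 sample, the samples that stand apart included. Mgl2 divided by Mrc1 separated the days as well, between 1.39 and 2.28 in the 6 day 0 samples and between 0.238 and 0.890 in the 6 day 7 samples. The FPKM of Retnla or of Mgl2 alone did not separate the days, and the fitted day change of Mrc1 was 0.58. How many other genes divided by Mrc1 would separate the days was not counted. Mgl2 divided by its near copy Clec10a was between 1.16 and 2.50 on day 0 and between 0.483 and 1.27 on day 7, which overlapped.

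The wound-induced pair over the resident pair, as the FPKM of Arg1 plus Chil3 divided by that of Mrc1 plus Cd163, was 23.1 in WT day 7 replicate 1. It was between 0.463 and 6.06 in the other 11 samples. In WT day 0 it was between 2.82 and 2.94, and in the other 2 WT day 7 samples it was 1.38 and 0.808, below all WT day 0 samples. The highest value outside WT day 7 replicate 1 was that of Cthrc1-/- day 0 replicate 3, where Mrc1 and Cd163 together were 2.91 FPKM. These ratios were not tested and describe the samples.

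**Figure D3:**
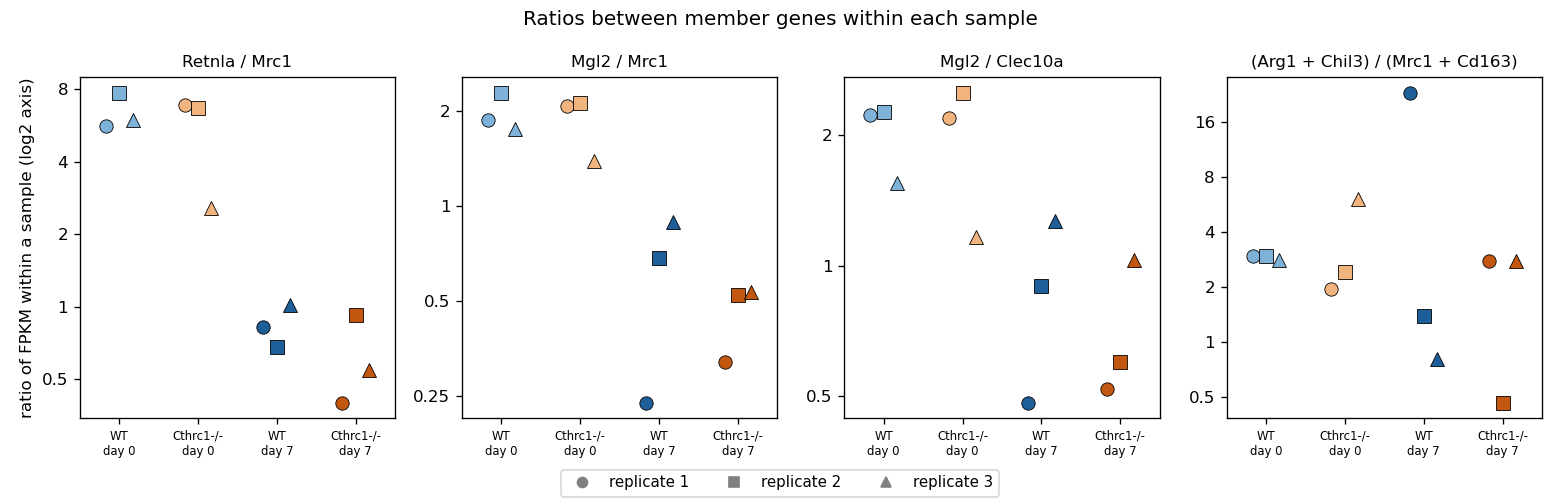
Ratios of FPKM within each sample on a log2 axis, with a symbol per replicate. Retnla/Mrc1 and Mgl2/Mrc1 separate the 6 day 0 from the 6 day 7 samples, and the ratio of Arg1 plus Chil3 to Mrc1 plus Cd163 is 23.1 in WT day 7 replicate 1.

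On day 7 no member differed between Cthrc1-/- and WT by the test. Of the 10, edgeR called 0, beside 0.021% of genes (3 of 14313), and limma called 0, as did DESeq2 for the 9 members other than Chil3. The smallest edgeR adjusted p was 0.907. Unadjusted edgeR p were under 0.05 for 4 members (Arg1, Chil3, Il4ra and Msr1), beside 5.46% of genes. All 10 fitted differences were negative, Cthrc1-/- minus WT, with a median of −1.32 against −0.01 over all genes. The groups overlapped for every member.

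Without WT day 7 replicate 1, edgeR again called 0 members and 0 had an unadjusted p under 0.05. Then 7 differences were negative and 3 positive, with a median of −0.37. The wound-induced markers turned direction: Arg1 went from −3.27 (SE 1.28) to 0.26 and Chil3 from −5.01 (SE 2.15) to 1.23. Il4ra went from −1.65 (SE 0.73) to 0.03. Msr1 went from −2.24 (SE 0.83) to −0.34, Il10 from −1.61 (SE 1.14) to −0.71 and Cd163 from −1.04 (SE 0.64) to −0.23. The other 4 members moved less, Mrc1 from −0.60 (SE 0.46) to −0.40, Clec10a from −0.48 (SE 0.48) to −0.50, Retnla from −0.97 (SE 0.68) to −0.74 and Mgl2 from −0.88 (SE 0.54) to −1.18. All edgeR adjusted p without the library were 1.

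The intervals of the day 7 differences were wide with all samples in the fit. The 95% interval was −2.47 to 0.54 for Retnla, −2.08 to 0.32 for Mgl2, −1.62 to 0.42 for Mrc1 and −2.47 to 0.39 for Cd163. A lower level of 2-fold or more in Cthrc1-/- was inside each of these 4 intervals, and so was no difference.

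**Figure D4:**
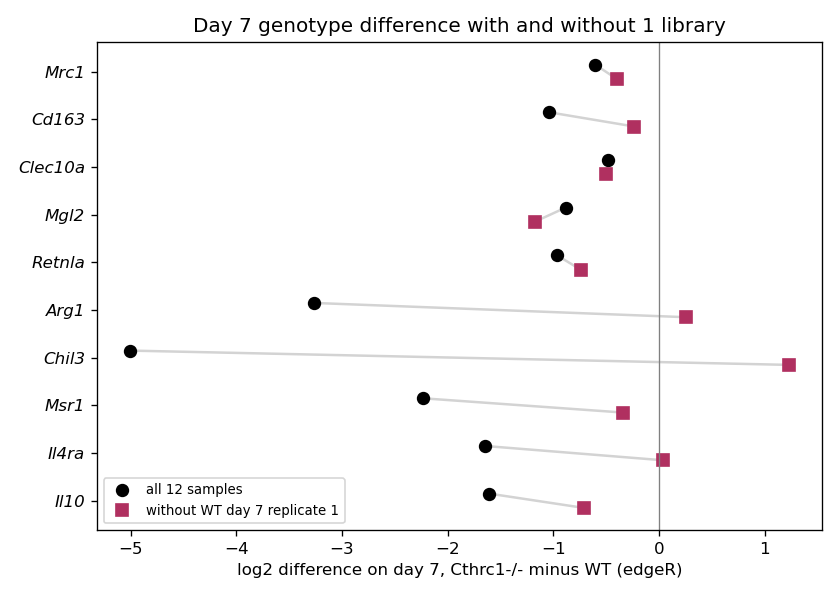
Fitted log2 difference of each gene on day 7, Cthrc1-/- minus WT, with all 12 samples (circles) and without WT day 7 replicate 1 (squares), grey lines joining the values of a gene. Arg1, Chil3 and Il4ra change sign without that library, while Mrc1, Clec10a, Mgl2 and Retnla stay below 0.

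On day 0 the members were lower in Cthrc1-/- by fitted value in 9 of 10, the exception being Il4ra at 0.18 (SE 0.71), and none passed. Of the 10, edgeR called 0, beside 5.78% of genes, 0 had an unadjusted p under 0.05, beside 28.4%, and limma and, for the same 9 members, DESeq2 called 0. The median was −0.92, against −0.05 over all genes. For 3 members the Cthrc1-/- samples were all below the WT samples, beside 19.8% of genes: Mrc1 at −0.85 (SE 0.46, edgeR adjusted p = 0.251), Cd163 at −1.40 (SE 0.65, edgeR adjusted p = 0.186) and Arg1 at −1.08 (SE 1.19, edgeR adjusted p = 0.571). Without Cthrc1-/- day 0 replicate 3 these were −0.48, −1.12 and −1.09, and Retnla and Mgl2 went from −0.90 (SE 0.67) and −0.82 (SE 0.54) to −0.40 and −0.39.

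Whole-tissue markers moved beside these day 0 values. The 17 macrophage and monocyte markers summed to between 455 and 482 FPKM in WT day 0 and to between 189 and 350 in Cthrc1-/- day 0, and the fibroblast markers to between 4814 and 6441 in the former and between 337 and 2386 in the latter. Hair follicle markers summed to between 12.5 and 15.8 FPKM in WT day 0 and to between 234 and 11995 in Cthrc1-/- day 0. Their part in the member differences was not tested. Mrc1 as a share of the macrophage and monocyte sum was between 1.61% and 1.70% in WT day 0 and between 1.08% and 2.06% in Cthrc1-/- day 0, which overlapped.

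The change between days did not differ between genotypes by the test for any member. For that interaction edgeR called 0 of the 10, beside 0.014% of genes, 0 had an unadjusted p under 0.05, beside 15.1%, and limma and, for the same 9 members, DESeq2 called 0. The smallest edgeR adjusted p was that of Il4ra, 0.412, with a difference of −1.83 (SE 1.02), which was −0.19 without WT day 7 replicate 1. For Retnla the difference of the falls was −0.07 (95% interval −2.16 to 2.03) and for Mgl2 −0.06 (95% interval −1.74 to 1.63). The falls in WT and in Cthrc1-/- were thus nearly the same in size, with intervals that still hold a difference of 3-fold in either direction.

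Macrophage and monocyte markers were higher on day 7 by their sum. Of the 17 markers, 16 were tested and 10 rose over both genotypes, beside 8.35% of all genes, and 0 fell. Within WT 0 of the 16 were called, beside 6.04% of genes higher and 7.10% lower. Within Cthrc1-/- 1 rose (Aif1), beside 1.46% of genes called in either direction. These calls were not repeated without WT day 7 replicate 1. Fcgr1, the high-affinity IgG receptor, rose by 3.32 on the log2 scale (SE 0.70, edgeR adjusted p = 0.0125), Ccr2, the receptor of recruited monocytes, by 2.00 (SE 0.56, edgeR adjusted p = 0.0362) and Aif1 by 1.67 (SE 0.30, edgeR adjusted p = 0.00690). The list summed to between 189 and 482 FPKM in the 6 day 0 samples and to between 535 and 2247 FPKM in the 6 day 7 samples, which did not overlap. Retnla as a share of that sum was between 2.79% and 14.2% on day 0 and between 0.359% and 1.47% on day 7. Mrc1 as a share was between 1.08% and 2.06% on day 0 and between 0.624% and 1.48% on day 7, which overlapped.

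Of the 11 resident dermal macrophage markers, 10 were tested and 1 rose over both genotypes, Stab1, a scavenger receptor of resident macrophages and of endothelium, by 1.89 (SE 0.30, edgeR adjusted p = 0.00386), and 0 fell. All genes tested rose in 8.35% and fell in 9.56%, so that this count is near the share over all genes. Of 9 dendritic cell markers 5 were tested and 1 fell, beside 9.56% of all genes. It was Cd209a, a lectin of dermal dendritic cells that also carry Mgl2, which fell by 1.13 (SE 0.30, edgeR adjusted p = 0.0293). Nothing is read about the list from this 1 gene. The dendritic cell list summed to between 44.1 and 203 FPKM on day 0 and to between 101 and 142 on day 7. Of 7 adipocyte markers 6 were tested and 4 fell, beside 9.56% of all genes. The sum of the adipocyte markers went from 451 to 619 FPKM down to 66.4 to 149 between the days in WT, and was 95.7 to 307 and then 69.9 to 207 in Cthrc1-/-. Within WT 5 of the 6 adipocyte markers fell, beside 7.10% of genes. Within Cthrc1-/- 0 were called, beside 1.46% of genes in either direction, and there the sums overlapped between the days. The part of adipocyte and dendritic cell RNA in the falls of Retnla and Mgl2 was not tested.

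Neutrophil markers were higher on day 7 by their sum in each genotype. That sum mostly follows S100a9 and S100a8, which averaged 452 and 187 FPKM over the 12 samples. The other called markers averaged at most 20.8 FPKM (Retnlg). Which cells the S100a8 and S100a9 RNA came from was not tested. Of the 10 markers 8 were tested and 7 rose over both genotypes, beside 8.35% of all genes, led by S100a8 at 5.95 (SE 0.96, edgeR adjusted p = 0.00417). Within WT 6 of the 8 rose, beside 6.04% of genes. Within Cthrc1-/- 0 were called, beside 1.46% of genes in either direction. These calls were not repeated without WT day 7 replicate 1. For WT the list summed to between 9.15 and 14.5 FPKM on day 0 and to between 43.4 and 5129 on day 7, and for Cthrc1-/- to between 23.3 and 91.2 and between 390 and 1165. Of 15 inflammatory macrophage markers 14 were tested and 1 rose, Ccl3, a chemokine of macrophages and neutrophils, by 3.12 (SE 0.78, edgeR adjusted p = 0.0238). That count is near the share of all genes that rose, 8.35%. WT day 7 replicate 1 was highest in both lists and also in Arg1, Chil3, Msr1, Il4ra, Il10, Cd163 and Mrc1, whereas it was the lowest WT day 7 sample in Mgl2. The part of neutrophil RNA in these member levels was not tested.

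**Figure D5:**
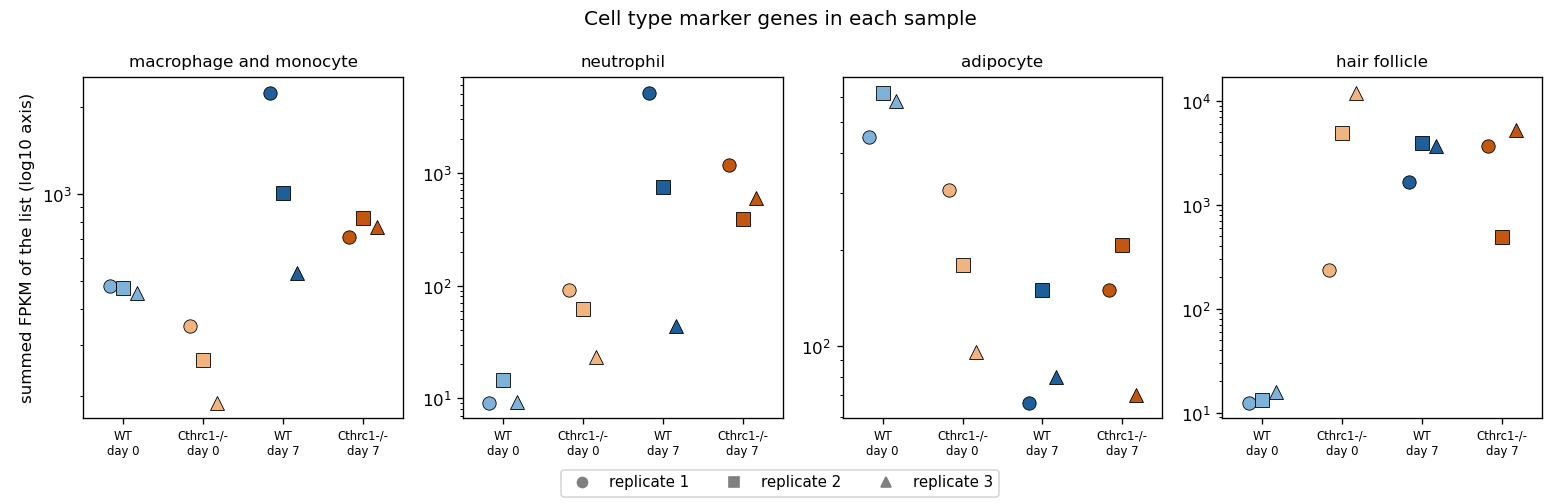
Summed FPKM of 4 marker lists in each of the 12 samples on a log10 axis, with a symbol per replicate. Macrophage and monocyte markers lie between 189 and 482 on day 0 and between 535 and 2247 on day 7, and WT day 7 replicate 1 is highest for them and for neutrophil markers.

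The IL-4, IL-13 and IL-10 pathway, from ligands to targets, was described with a list of 25 genes that includes Il4ra and Il10. Of these 23 were tested, and over both genotypes 2 rose and 2 fell, with a median of 0.12. All genes tested rose in 8.35% and fell in 9.56%, so that these counts are near the share over all genes. Il2rg, the common gamma chain of the IL-4 receptor, rose by 1.30 (SE 0.36, edgeR adjusted p = 0.0344), and Il10rb, a chain of the IL-10 receptor, by 0.93 (SE 0.27, edgeR adjusted p = 0.0413). Klf4, a transcription factor that acts with STAT6 in macrophages and is also a factor of differentiating epidermis, fell by 1.53 (SE 0.30, edgeR adjusted p = 0.00874), and Irs2, an adaptor of the IL-4 receptor and of insulin signalling, by 1.37 (SE 0.22, edgeR adjusted p = 0.00408). In WT alone the 2 that fell were again Klf4 and Irs2, and 0 rose.

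Between genotypes on day 0 edgeR called 1 gene of the pathway list, Tyk2, a kinase of the receptor, at −0.47 (SE 0.11, edgeR adjusted p = 0.0433). On day 7 it called 0 of the 23. The ligands themselves were at the edge of detection and were named here after their values had been seen: Il4 was between 0.224 and 0.643 FPKM and Il13 between 0 and 1.58 FPKM over the 12 samples, and neither passed the filter.

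The genes with patterns most like the 4 markers differed. By Pearson's r of log2(FPKM + 1) over the 12 samples, among all genes tested, Mrc1 was most like C1ra (r = 0.98), C1rb (r = 0.98) and Tgfbr2 (r = 0.97). C1ra went from 24.1, 22.4 and 24.9 FPKM to 62.5, 50.7 and 20.6 between the days in WT, and from 22.1, 14.5 and 6.77 to 37.9, 32.6 and 15.2 in Cthrc1-/-. Cd163 was most like Ifi205 (r = 0.97), Adgrd1 (r = 0.95) and Sned1 (r = 0.95). Arg1 was most like Star (r = 0.90), Wnt2 (r = 0.90) and Spidr (r = 0.89). Chil3 was most like Tarm1 and Cd300lf (each r = 0.99), of which Cd300lf stood at 35.2 FPKM in WT day 7 replicate 1 and at most 0.886 FPKM in any other sample. These r are descriptions over samples that share library and tissue make-up, and those of Arg1 and Chil3 follow the single high library. The genes most like Cd163 were also highest in that library, Adgrd1 at 26.55 FPKM against at most 9.38 elsewhere.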

How the data were processed

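The 12 dermis samples, 3 per genotype and day, were sequenced as poly(A) RNA, per the labels' protocols, which also name molecular identifiers in the adapters. The authors deposited 1 table with a whole-number count and an FPKM for 55401 Ensembl genes. The submitters' processing notes name cutadapt 1.9, HISAT2 2.0.4, UMI-tools, StringTie 1.3.4d, DESeq2, edgeR and GRCm38, with no role or order. The annotation and the counting rule are not given in the sources used here. In the deposited table every count of 0 carried an FPKM of 0.0001, read here as 0. Deposited counts at 4 were between 3.16 and 4.05 times as frequent as their neighbours, and at 8 between 2.60 and 3.51 times, so that a low count may not be 1 fragment. Unused value columns numbered 0.

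Symbols and positions came from GENCODE M21 on GRCm38, which named 55141 IDs, and promoters from RefSeq. edgeR 4.0.16 in R 4.3.3 tested the counts by quasi-likelihood (two-sided, TMM, 1 fit of all 12 samples with a mean for each group) in the 14313 genes whose FPKM averaged 1 or more. P-values were adjusted by Benjamini-Hochberg over these genes, with calls under 0.05. The 6 comparisons were genotype on each day, day in each genotype, day averaged over genotypes, and the interaction. The first 4 share samples with each other, WT day 7 among them. Standard errors are the log2 change over the square root of F. The replicates are labelled biological.

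Alternatives were DESeq2 1.42.0, limma 3.58.1 on log2(FPKM + 1) and log2(FPKM + 0.1), other scalings and filters, counts divided by 4, a replicate block, only the compared groups, and leaving out each sample. The fits that left out a sample kept the 14313 genes that passed the filter with all samples. On simulated 4-fold changes in 200 of the 14313 genes for the day 7 genotype comparison, edgeR recovered 100% with 4.76% false calls, limma 100% with 6.10% and DESeq2 100% with 12.7%. The simulation gave every gene the same spread between replicates and held no library that stands apart. It therefore checks that the tests run, and does not show which differences these samples could detect. The members and lists were chosen with earlier results of these data known. All 10 members are named, and from other lists per comparison at most the 3 called genes with the largest change. For Mrc1, Cd163, Arg1 and Chil3 the 3 most alike genes were taken, with placeholder symbols left out, and some of them are not reported here. One hair follicle marker, Krt85, was matched to no symbol, leaving 9 of 10. No 2 libraries of 1 group agreed within sampling noise.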

Additional observations from a re-analysis of the deposited data

How the results depend on the processing

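The number of members called depended on the settings in 3 comparisons. In WT between days it was 2, and it was 4 by DESeq2, 0 with no filter on low values, 1 with the filter of edgeR's filterByExpr, 1 by limma on log2(FPKM + 1), 1 by limma on log2(FPKM + 0.1), and 0 to 3 on leaving out 1 sample. In Cthrc1-/- between days it was 0, with 1 by DESeq2 and 0 to 2 on leaving out 1 sample. Over both genotypes it was 4, with 3 by DESeq2 (which gave Chil3 no adjusted p in any comparison), 3 with counts divided by 4, 2 by limma on log2(FPKM + 1), 2 on log2(FPKM + 0.1) and 1 to 5 on leaving out 1 sample. The counts of 0 between genotypes on either day and for the interaction were 0 in every alternative run. Among 38 member changes followed, 28 kept their direction in every alternative. The 38 do not cover every member in every comparison, and some of the others turned sign too. On leaving out 1 sample, the interaction of Arg1 ranged from −3.04 to 1.29 and the WT change of Cd163 from −0.69 to 0.43. The fall of Retnla over both genotypes was called in all 9 alternatives other than leaving out a sample (−2.56 to −2.07) and that of Mgl2 in 8 of 9 (limma on log2(FPKM + 0.1) gave −1.16, adjusted p = 0.0543).

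Replicate numbers recur in the 4 groups, but of 18 same-numbered pairs 5 had deviations correlated above 0.1 (r from −0.19 to 0.47), so the numbers were not taken to pair the samples. With the replicate block 1 member was called in WT between days (Msr1 missed, edgeR adjusted p = 0.0571), 4 over both genotypes and 0 in the other comparisons. With the block the day change of Cd163 was −0.021 and that of Clec10a −0.049, and the interaction was 0.19 for Retnla and 0.010 for Mgl2, all opposite in sign to the reported values. The interaction of Retnla was also positive by limma, 0.38 on log2(FPKM + 1) and 0.31 on log2(FPKM + 0.1), as was that of Mgl2, 0.28 and 0.29.

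Leaving out 1 sample turned the sign of 10 of these 38 member changes, none of which had passed the test. The ranges over the 12 such fits were −4.13 to 0.26 for Arg1, −5.59 to 1.23 for Chil3 and −2.14 to 0.035 for Il4ra between genotypes on day 7, and −1.20 to 2.79 for Arg1 in WT between days. Over both genotypes they were −0.56 to 1.42 for Arg1, −0.13 to 0.43 for Cd163, −0.15 to 0.30 for Clec10a and −0.24 to 0.59 for Il10. For the interaction they were −0.66 to 0.68 for Retnla and −0.50 to 0.57 for Mgl2. The cause of these shifts was not tested.

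Scaling by total counts moved the median change between days of all genes from 0.01 to 0.19 and the calls from 1195 higher and 1369 lower to 2679 and 660, and limma on log2(FPKM + 1) gave 2369 and 718. Relative to that shift the 4 member calls over both genotypes were kept in number under total-count scaling. Calls over all genes, with all samples and then on leaving out 1, ranged from 2 to 62 and 0 to 4 between genotypes on day 7 (3 reported), 19 to 2787 and 18 to 2146 on day 0 (827), 89 to 1409 and 5 to 911 between days in Cthrc1-/- (209), 1293 to 3551 and 527 to 3005 in WT (1880), 2165 to 3959 and 1354 to 3621 over both genotypes (2564), and 1 to 681 and 0 to 242 for the interaction (2). Depth limits low values such as those of Chil3, since 3 counts correspond to between 0.0390 and 0.0621 CPM, which covers counting error only.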

Other observations

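The genes most like each marker were listed again over the 11 samples without WT day 7 replicate 1, a choice made after that library had been seen. Mrc1 kept C1ra (r = 0.99) and C1rb (r = 0.98), both genes of the complement C1r protease. Cd163 was then most like Ghr (r = 0.97), the growth hormone receptor, Agt (r = 0.96), angiotensinogen, and Slc1a5 (r = 0.96), an amino acid transporter. Arg1 was most like Sh3d19 (r = 0.95), which stood between 14.7 and 14.9 FPKM in WT day 0 and between 4.45 and 10.8 FPKM in the 6 day 7 samples. Chil3 was most like Fuca2 (r = 0.94), Spp1 (r = 0.93), the gene of osteopontin, and Nmnat1 (r = 0.92). Spp1 stood at 12.5, 6.30 and 6.11 FPKM in WT day 0, at 4.36, 7.59 and 6.59 in Cthrc1-/- day 0, at 156, 39.8 and 10.4 in WT day 7 and at 42.9, 20.9 and 52.5 in Cthrc1-/- day 7. Its day groups overlapped in WT and not in Cthrc1-/-.

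Among the 45 pairs of members, the receptors Cd163 and Clec10a had r = 0.80 over the 12 samples and r = 0.93 over the 11 without WT day 7 replicate 1. Mrc1 and Clec10a had r = 0.84 and 0.88. Arg1 and Chil3, the wound-induced pair, had r = 0.86 over the 12 samples and r = 0.17 over the 11. Msr1 and Il4ra had r = 0.94 and 0.64. These r describe the samples and were not tested.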
